A study of Homo sapiens with 50 samples.

Results

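The hairpins described here target variants of histone H2A. They are the 29 of 3443 hairpins in the deposited table whose only gene name starts with H2AF. The 6 genes were H2AFZ and H2AFV, which encode the 2 forms of H2A.Z, H2AFX (H2AX), H2AFJ (H2A.J), and H2AFY and H2AFY2, which encode the macroH2A histones. H2AFX had 4 hairpins and each of the other genes had 5. Another 11 hairpins named an H2AF gene among several genes and are not members.

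The question behind the screen was which chromatin genes hold back the division of ageing fibroblasts. IMR90 cells, human lung fibroblasts with a finite lifespan in culture that ends in replicative senescence, were grown at 3% oxygen and infected with lentiviral short hairpin RNA (shRNA) pools at a multiplicity of infection of 0.3. A hairpin is built to lower the RNA of its target gene, and its integrated DNA serves as a tag that counts the cells carrying it. Each of 10 plates received a pair drawn from 5 initial pools, so that each hairpin entered 4 plates, and DNA was taken at population doublings (PD) 40, 45, 50, 55 and 60, with PD40 as the proliferating reference and PD60 as senescence. All groups carried the hairpin library, and the labels name no other treatment.

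The table held 1 pooled column for each PD, and the columns summed to between 8270745 tags (PD60) and 11505688 tags (PD55). No column measured the spread between plates, so every difference below has no replicate check and no p-value is given. Abundance is in CPM, the tags of a hairpin scaled to the total of its column. The intervals in parentheses are exact 95% counting intervals, which cover counting error only, because PCR tags without molecular identifiers are not independent molecules. A hairpin is called higher or lower where its CPM plus a pseudocount of 1 changed over 2-fold against PD40. The library shrank as the cells aged: the median log2 change over all hairpins was -1.63 at PD45 and -3.46 at PD50, and -4.93 at PD55 and -5.86 at PD60, so a fall is the usual course and directions are relative to the column total. How far each hairpin lowered its target was not analysed here.

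H2A variants replace the canonical H2A in a nucleosome and change how it is read or repaired. H2A.Z sits beside transcription start sites and is placed by the SRCAP and p400/TIP60 remodelling complexes. H2AX is phosphorylated by the kinases ATM and ATR beside DNA breaks, and such foci gather in senescent fibroblasts. H2A.J accumulates in senescent human fibroblasts with lasting DNA damage. MacroH2A, which carries a large extra domain, is enriched on the inactive X chromosome and in the heterochromatin foci of senescent cells.

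As a set, the H2A variant hairpins shrank with the rest of the library, and a few of them grew. Of the 29 members, 28 reached 10 tags in PD60 or PD40 and were assessed. At PD60, 3 of the 28 were over 2-fold higher than at PD40, which is 10.7% (95% exact binomial interval 2.27 to 28.2), against 2.28% of all hairpins. The interval holds the library's share at its lower end, and hairpins of 1 gene share a target. Over 2-fold lower were 24 of 28, or 85.7% (67.3 to 96.0), against 95.3% of all hairpins, and 1 lay within 2-fold. The members' median log2 change at PD60 was -5.01, and that of all hairpins -5.86. With edgeR's TMM scaling, which raised the median of all hairpins at PD60 by 4.02, these medians were -1.99 for the members and -1.84 for all hairpins, so the order of the medians turned round. Under TMM scaling 11 members were over 2-fold higher, and 8 of the 24 lower members changed sign: H2AFX TRCN0000073279, TRCN0000073280 and TRCN0000073281, H2AFZ TRCN0000072586, H2AFY TRCN0000106691 and TRCN0000106694, H2AFJ TRCN0000106749 and H2AFY2 TRCN0000106906. Their falls at PD60 given below are falls in the share of all tags.

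The count of lower members grew between PD45 and PD50 and was the same at PD55. At PD45, 12 of 28 members (42.9%, exact binomial interval 24.5 to 62.8) were over 2-fold lower, against 63.2% of all hairpins. At PD50 it was 21 of 28 (75.0%, 55.1 to 89.3), against 81.9%. At PD55 it was again 21 of 28 (75.0%, 55.1 to 89.3), against 91.7%. The library's share lay inside the interval at PD50 and above it at PD45 and PD55. These intervals take hairpins as independent. The members were not tested against the library, since hairpins of 1 gene share a target. Over 2-fold higher were 0 of 28 members at PD45, against 5.73% of all hairpins, 1 at PD50 (3.57%), against 4.94%, and 2 at PD55 (7.14%), against 2.92%. The members' median log2 change was -0.96 at PD45, -2.09 at PD50 and -4.74 at PD55, each nearer to 0 than the library's median at that time. With TMM scaling 7 members were higher and 7 lower at PD45, 11 higher and 8 lower at PD50, and 9 higher and 10 lower at PD55, while under that scaling 19.8% of all hairpins were higher and 34.3% lower at PD45, 25.6% higher and 46.4% lower at PD50, and 23.6% higher and 54.8% lower at PD55.

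Between neighbouring time points a different hairpin rose each time, by column totals. These steps were not run with other scalings. From PD45 to PD50, 1 of 25 assessed members was over 2-fold higher (4.00%, against 2.22% of all hairpins) and 14 were lower (56.0%, against 71.4%). From PD50 to PD55, 2 of 22 were higher (9.09%, against 1.7%) and 14 lower (63.6%, against 80.8%). From PD55 to PD60, 2 of 18 were higher (11.1%, against 5.4%) and 13 lower (72.2%, against 73.2%). The hairpin that rose first was H2AFZ TRCN0000072585. Those of the next step were H2AFX TRCN0000073278 and H2AFV TRCN0000106838, and those of the last were H2AFX TRCN0000073280 and H2AFZ TRCN0000072584.

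The 29 hairpins held 0.852% of all tags at PD40 (95% binomial interval 0.846 to 0.858) and 0.784% at PD45 (0.778 to 0.790). Their share then peaked, with 1.71% at PD50 (1.70 to 1.72) and 2.10% at PD55 (2.10 to 2.11), and ended at 0.580% at PD60 (0.575 to 0.585). A single H2AFZ hairpin, TRCN0000072585, made this peak. It held 17.2% of the members' tags at PD40 and 26.9% at PD45, 73.9% at PD50 and 82.1% at PD55, and 62.3% at PD60. Without it, the members held 0.447% of tags at PD50, 0.376% at PD55 and 0.218% at PD60. At PD60, 10 members had 0 tags (34.5%, against 44.1% of all hairpins), 8 had 1 to 4, 1 had 64 and 10 had over 100.

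H2AFZ encodes the more studied form of H2A.Z. Its hairpin TRCN0000072585 had 1468 CPM at PD40, 2111 at PD45 and 12659.5 at PD50, and then 17286 at PD55 and 3615 at PD60. It was the most abundant H2A variant hairpin at all 5 times, and at PD50 and PD55 no other member had a higher ratio to PD40. It stood at rank 98 of the library at PD40 and 74 at PD45, 15 at PD50 and 14 at PD55, and 37 at PD60. The ratio to PD40 was 1.44 (1.41 to 1.47) at PD45 and 8.62 (8.47 to 8.79) at PD50, and 11.8 (11.57 to 11.99) at PD55 and 2.46 (2.41 to 2.52) at PD60. Between PD55 and PD60 its share of tags fell, 4.78-fold lower at PD60 (4.72 to 4.84).

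A second H2AFZ hairpin, TRCN0000072584, followed another course. It had 350.1 CPM at PD40, 557.7 at PD45 and 582.8 at PD50, and then 182.2 at PD55 and 783.5 at PD60. Its ratio at PD60 was 2.24 (2.14 to 2.34), yet at PD55 it was at 0.520 (0.492 to 0.550) of its PD40 level, so its call as higher rested on the last column. As shares of tags, the 2 hairpins therefore moved in opposite directions between PD55 and PD60, with TRCN0000072584 4.30-fold higher at PD60 (4.09 to 4.52). This step was not run with other scalings. Size factors from DESeq2 went from 0.432 at PD55 to 0.0572 at PD60, so the directions hold for column totals only.

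The other H2AFZ hairpins ended lower. TRCN0000072586 held its level for 10 doublings, with 311.1, 338.5 and 330.8 CPM at PD40, PD45 and PD50, and then had 109.9 at PD55 and 30.7 at PD60, a level 10.1-fold lower at PD60 than at PD40 (8.90 to 11.6). TRCN0000072583 had 1 tag at PD60 and 818 at PD40. TRCN0000072587 started with only 91 tags and had 9, 9, 4 and 0 tags at the later times, at least 29.1-fold lower at PD60 when a count of 0 is set to a floor of 3 tags in that column.

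Averaged over its 5 hairpins, H2AFZ lost less than nearly every other target at the middle of the series. Its mean log2 change was -0.57 (SD 1.43) at PD45 and -0.26 (SD 2.43) at PD50, and -1.36 (SD 3.13) at PD55 and -2.16 (SD 3.33) at PD60, the SD being over hairpins, and the mean at PD60 was 3.25 with TMM scaling. Of 630 other genes with at least 3 assessed hairpins, 67 had a higher mean at PD45 and 3 at PD50, and 9 at PD55 and 4 at PD60. Leaving out a gene's highest hairpin could only lower its place, because the other genes kept all of theirs. Without TRCN0000072585 the mean was -1.10 at PD50, with 23 genes above, -2.58 at PD55, with 33 above, and -3.02 at PD60, with 19 above. The SD exceeded the size of the mean at each of these times when all 5 hairpins were used, so hairpins against the same gene differed by more than the gene stood from 0.

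H2AFV encodes the other H2A.Z protein, nearly identical to that of H2AFZ. Only 1 of its hairpins persisted: TRCN0000106838 had 191.9 CPM at PD40 and 251.3 at PD45, 125.4 at PD50 and 375.4 at PD55, and 724.8 at PD60. Its ratio at PD60 was 3.78 (3.58 to 3.99), the highest of the 28 assessed members, and it moved to rank 99 of the library at PD60, against rank 1215 at PD40. It was the sole member highest at PD60 that was also above its PD40 level at PD55, where the ratio was 1.96 (1.85 to 2.07).

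The remaining H2AFV hairpins were lost. TRCN0000106835 had 0 tags at PD60 and 1241 at PD40, at least 396.6-fold lower at the floor of 3 tags. TRCN0000106836 had 1 tag at PD60 and 1347 at PD40. TRCN0000106837, with 270 tags at PD40, had a single tag at PD45 and none afterwards. TRCN0000106839 had 1 tag at PD40 and 4 at PD45 and is the member left out of every fold change. The H2AFV mean at PD60 was -4.35 (SD 4.30, n = 4 hairpins), with 87 of 630 genes above it, and it was -0.10 with TMM scaling. Without TRCN0000106838, its highest hairpin, the H2AFV mean was -6.44. Then 521 genes were above, with all hairpins of the other genes kept.

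H2AFX encodes H2AX, the variant phosphorylated at DNA breaks. With column totals none of its 4 hairpins was over 2-fold higher at PD60, against 2.28% of all hairpins, and none was lost. With TMM scaling all 4 were over 2-fold higher at PD60, with log2 changes from 2.81 to 6.36, against 18.8% of all hairpins. TRCN0000073278 had 425.6 CPM at PD40, 275.1 at PD45 and 542.8 at PD50, and then 1366 at PD55 and 310.5 at PD60. It was 3.21-fold above PD40 at PD55 (3.10 to 3.33). Its share of tags then returned below its starting level, with a ratio of 0.730 (0.693 to 0.768) at PD60, within 2-fold. That return depended on the scaling: its log2 change at PD60 was -0.45 with column totals and 6.36 with TMM.

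The most abundant H2AX hairpins at the start dropped after PD55. TRCN0000073281 had 1230 CPM at PD40 and 1666 at PD45, 1534 at PD50 and 744.5 at PD55, and 75.5 at PD60. TRCN0000073279 had 1129.9 at PD40, 952.4 at PD45 and 534.9 at PD50, and then 596.0 at PD55 and 84.2 at PD60. TRCN0000073281 stayed within 2-fold of PD40 up to PD55, while TRCN0000073279 was 2.11-fold lower at PD50 (2.04 to 2.19) and within 2-fold at PD55. At PD60 they were 16.3-fold (15.0 to 17.7) and 13.4-fold (12.4 to 14.5) lower. From PD55 to PD60 alone, TRCN0000073281 became 9.87-fold lower (9.10 to 10.7) and TRCN0000073279 7.08-fold lower (6.55 to 7.67).

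TRCN0000073280 ran the other way. It had 276.2 CPM at PD40 and 10.6 at PD45, 4.36 at PD50 and 9.30 at PD55, and 70.5 at PD60. An early loss, 63.3-fold lower at PD50 (45.8 to 90.1), was followed by a 7.58-fold higher level at PD60 than at PD55 (6.16 to 9.40). It remained 3.92-fold lower at PD60 than at PD40 (3.58 to 4.30).

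The H2AFX mean log2 change was -1.25 (SD 2.26) at PD45 and -1.53 (SD 2.86) at PD50, and -1.18 (SD 2.66) at PD55 and -2.54 (SD 1.66) at PD60 over 4 hairpins, and it was 4.27 at PD60 with TMM scaling. Of 630 other genes, 208 had a higher mean at PD45 and 64 at PD50, and 6 at PD55 and 10 at PD60. With TRCN0000073278 left out and all hairpins of the other genes kept, there were 21 genes above at PD55 and 25 at PD60. The hairpins together held 0.306% of tags at PD40, 0.290% at PD45 and 0.262% at PD50, and then 0.272% at PD55 and 0.0541% (0.0525 to 0.0557) at PD60, a nearly level share up to PD55.

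H2AFJ encodes H2A.J. All 5 of its hairpins were over 2-fold lower at PD50, PD55 and PD60, against 81.9%, 91.7% and 95.3% of all hairpins. TRCN0000106746 first grew, with 225.9 CPM at PD40 and 303.0 at PD45, and then had 98.0 at PD50, 9.13 at PD55 and 0.363, or 3 tags, at PD60. TRCN0000106745, with 217.9, 183.2, 57.9 and 6.17 CPM up to PD55, had 0 tags at PD60, at least 600.8-fold lower than at PD40. TRCN0000106748 had 1 tag at PD60 and 2490 at PD40, and TRCN0000106747 had 1239 tags at PD40, only 1 at PD50 and 0 at PD60.

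The survivor among the H2AFJ hairpins was TRCN0000106749, the least abundant of the gene at PD40. It had 75.2 CPM at PD40 and 8.88 at PD45, 4.84 at PD50 and 5.04 at PD55, and 7.74 at PD60, so an 8.47-fold drop at PD45 (6.69 to 10.9) was followed by a nearly flat course. The H2AFJ mean at PD60 was -6.69 (SD 2.02), the lowest of the 6 genes, with 555 of 630 genes above it. At PD45 its mean of -1.93 (SD 1.94) had 390 genes above.

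H2AFY encodes macroH2A1, and its hairpins split into a pair that persisted and 3 that were lost. TRCN0000106694 had 398.1 CPM at PD40, 247.2 at PD45 and 281.3 at PD50, and then 233.9 at PD55 and 58.4 at PD60. TRCN0000106691 had 358.9 at PD40 and 179.7 at PD45, 165.5 at PD50 and 103.0 at PD55, and 37.8 at PD60. They were 6.82-fold (6.20 to 7.51) and 9.48-fold (8.44 to 10.7) lower at PD60 than at PD40. These were also the 2 most abundant of the gene at the start.

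The other H2AFY hairpins had few tags from PD50 on. TRCN0000106690 had 1576 tags at PD40, then 19 at PD50, 2 at PD55 and 0 at PD60. TRCN0000106693 had 1275 at PD40, then 35 at PD50, 3 at PD55 and 1 at PD60. TRCN0000106692 had 589 at PD40, then 5 at PD50, a single tag at PD55 and 0 at PD60. The gene's mean was -1.87 (SD 1.54) at PD45 and -3.55 (SD 2.54) at PD50, and -4.55 (SD 3.04) at PD55 and -5.33 (SD 2.21) at PD60, with 301 of 630 genes above at PD55 and 260 at PD60. With TRCN0000106694 left out and all hairpins of the other genes kept, 531 genes were above at PD55 and 417 at PD60. With TMM scaling the mean at PD60 was -0.54.

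H2AFY2 encodes macroH2A2, and its hairpins left the fewest tags of the 6 genes at PD60, although the H2AFJ mean was lower and H2AFV had more hairpins at 0 tags. Together they had 3 tags at PD60 and 5125 at PD40, a share of 0.000036% of tags (0.000007 to 0.000106) at PD60, against 0.0594% (0.0578 to 0.0611) at PD40. At PD45, 4 of 5 hairpins were within 2-fold of PD40, against 1061 of 3420 in the library. All 5 were lower at PD50, against 81.9% of all hairpins. TRCN0000106907, the most abundant, had 369.0 CPM at PD40 and 263.6 at PD45, 83.9 at PD50 and 10.1 at PD55, and 0.121, or 1 tag, at PD60.

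TRCN0000106905 had 1034 tags at PD40 and 550 at PD45, 238 at PD50 and 8 at PD55, and 0 at PD60. TRCN0000106908 had 614, 334, 46, 7 and 1 tags at those times. TRCN0000106909 had 268 tags at PD40, 28 at PD45 and none later. TRCN0000106906 had 26 tags at PD40, 9 at PD45, none at PD50 and PD55 and 1 at PD60, so its change is the least certain of the gene. The H2AFY2 mean was -1.24 (SD 0.97) at PD45 and -2.94 (SD 1.31) at PD50, and -4.74 (SD 1.60) at PD55 and -5.63 (SD 2.45) at PD60. At PD45 207 of 630 genes were above it and at PD60 325 were. Without TRCN0000106907, the hairpin of the gene with the lowest change (-8.37), 174 were above the H2AFY2 mean at PD60. The other genes kept all their hairpins in that count. With TMM scaling the mean at PD60 was -2.19.

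Ordered by their means at PD60, the genes ran H2AFZ, H2AFX, H2AFV, H2AFY, H2AFY2 and H2AFJ. The widest step between neighbours was 1.82, between H2AFX and H2AFV. The other steps were 0.30 to 1.07, against SDs over single hairpins of 1.66 to 4.30. With 4 or 5 hairpins a gene and no replicate columns, the order between neighbours was not tested. The same genes at PD45 ran H2AFZ, H2AFY2, H2AFX, H2AFV, H2AFY and H2AFJ, so that with column totals and all hairpins H2AFZ was first and H2AFJ last at both times. At PD60 H2AFX was above H2AFZ with TMM scaling (4.27 and 3.25), with DESeq2's size factors (4.34 and 3.26) and without the 50 most abundant hairpins (0.13 and -0.50). Without the hairpin with the most tags, H2AFY (-5.97) was above H2AFV (-6.44). For H2AFY2 hairpins tied at 1 tag at PD60, so its place under this setting depends on which is left out. Its mean was -4.94 without TRCN0000106907, the hairpin of that gene with the lowest log2 change (-8.37). H2AFJ was last under each of these settings, at -2.25 with TMM scaling.

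Hairpins against H2AFX and H2AFZ kept more tags than those against the other 4 genes, a grouping made after the values were seen. Over 100 tags at PD60 were found for 7 of 9 hairpins against H2AFX and H2AFZ and for 3 of 20 against the other genes, that is 77.8% and 15.0%, against 13.9% of all hairpins. They also started higher: the median was 3020 tags at PD40 for those 9 and 1258 for the other 20. In the most abundant quintile of the library at PD40 lay 5 of the 9 and 3 of the 20.

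The share of hairpins over 2-fold higher at PD60 rose with starting abundance across the library. The median log2 change did not: from the bottom quintile of PD40 abundance up it was -4.42, -5.75, -6.62, -7.185 and -6.24. Each member was therefore also set against hairpins of its own quintile of PD40 abundance. In the top quintile, from 2998 to 123277 tags at PD40, 6.24% of all hairpins were over 2-fold higher at PD60 and the median log2 change was -6.24, while the 8 members there had a median of -2.98 and 2 were higher. In the quintile below it 3.34% of all hairpins and 1 of 7 members were higher, and in the next ones 1.02% and 0.581% of all hairpins and 0 of 6 and 0 of 3 members. In the bottom quintile, up to 323 tags, 0.151% of all hairpins were higher, and 0 of 4 assessed members were. Above the median of their own quintile were 15 of 28 members at PD45 and 19 at PD50, and 18 at PD55 and 14 at PD60. At PD60 these were 9 of 9 hairpins against H2AFX and H2AFZ and 5 of 19 against the other 4 genes. Being above the median was not the same as persisting. Of the 9, TRCN0000072587 started with 91 tags and had 0 at PD60, with a log2 change of -3.53 against its quintile's -4.42. TRCN0000072583 had 1 tag at PD60, with -6.42 against -6.62. The grouping of genes was made after the values were seen and the split was not tested.

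The H2AFX and H2AFZ hairpins carry numbers from 72583 to 73281 in the hairpin catalogue, and the rest carry numbers from 106690 to 106909. The 2 sets thus lie in different number ranges. Each block below is a range of numbers around 1 set, of unequal width and set after the values were seen. The labels name no such blocks. The 164 hairpins of the first block, 72273 to 78632, had a median log2 change of -5.90 at PD60 and 3.66% were over 2-fold higher. The 347 of the second block, 106650 to 106999, 344 of them assessed, had -5.84 and 2.03%. Over 2-fold lower at PD60 were 90.2% of the first block and 96.5% of the second. The median was 1868 tags in the first block and 1025 in the second at PD40, and 4.5 and 1.0 at PD60.

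Hairpins against canonical H2A genes had a similar median. The median log2 change at PD60 was -5.01 for the variant hairpins and -5.17 for the 42 assessed of 43 canonical ones. Over 2-fold higher were 3 of 28 variant hairpins (10.7%) and 2 of 42 canonical ones (4.76%), and over 2-fold lower 24 (85.7%) and 38 (90.5%). For 69 hairpins against H2B the median was -5.79, with 2 higher (2.90%) and 64 lower (92.8%). Of all hairpins 2.28% were higher and 95.3% lower at PD60, with a median of -5.86. At PD45 none of the variant hairpins and 5 of 42 canonical hairpins (11.9%) were over 2-fold higher, against 5.73% of all hairpins. No test of these differences was made, since hairpins are not replicates.

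Hairpins against enzymes and readers that act on the variants were mostly lost. For H2A.Z exchange 12 genes were measured with 57 assessed hairpins, of which 1 was over 2-fold higher at PD60 (1.75%) and 54 lower (94.7%), close to the background of 2.28% and 95.3%. The higher hairpin was ACTL6A TRCN0000072275, against an actin-related subunit shared by TIP60, INO80 and SWI/SNF complexes. It had 4525 tags at PD40, 4751 at PD45 and 7409 at PD50. It then had 20739 at PD55 and 31537 at PD60, a ratio of 7.27 (7.05 to 7.50). Of the 5 ACTL6A hairpins, 1 was higher and 2 were lower at PD60, with a mean log2 change of -1.65 (SD 4.09). All 5 hairpins against SRCAP, the motor that places H2A.Z, were lower (mean -5.16, SD 2.14), as were all 4 against EP400 (mean -6.49, SD 2.68) and all 5 against VPS72, the H2A.Z chaperone subunit of those complexes (mean -4.66, SD 1.48). Such a fall is the usual course: the median of the gene means at PD60 was -5.59, over genes with at least 3 assessed hairpins. The means of SRCAP and VPS72 lay above that median and the mean of EP400 below it.

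For H2AX signalling 6 genes were measured with 37 hairpins. Of these 2 were over 2-fold higher at PD60 (5.41%, against 2.28% of all hairpins) and 35 lower (94.6%, against 95.3%). ATR TRCN0000039617 had 9465 tags at PD40 and 47043 at PD45, 56901 at PD50 and 183420 at PD55, and 149572 at PD60, a ratio of 16.5 (16.1 to 16.8), while the other 7 ATR hairpins were lower. SUPT16H TRCN0000001258, against a subunit of the FACT histone chaperone, had 1150 tags at PD40, 19767 at PD45 and 17208 at PD50, and then 24421 at PD55 and 3985 at PD60, a ratio of 3.61 (3.38 to 3.86). All 10 hairpins against ATM were lower (mean -6.78, SD 1.68), against 95.3% of all hairpins and a median of the gene means of -5.59. Of 15 hairpins against the macroH2A partners ATRX, PARP1 and HELLS, 0 were higher and 14 lower (93.3%).

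The hairpins that named several genes followed the usual course of the library. Of these 11, 10 named H2AFB1, H2AFB2 and H2AFB3 together, genes of a short H2A variant known from testis, and 1 named H2AFX and H2AFJ with 5 other histone genes. All 11 were over 2-fold lower at PD60, against 95.3% of all hairpins, with a median log2 change of -5.62, against -5.86. The hairpin shared by H2AFX and H2AFJ, TRCN0000073282, had 11364 tags at PD40 and 7130 at PD45, 5134 at PD50 and 1142 at PD55, and 79 at PD60. Among those against the H2AFB genes, TRCN0000106825 kept the most tags, with 1114 at PD60 and 8006 at PD40.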

How the data were processed

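Hairpin tags were measured in genomic DNA of 50 samples, 10 plates at each of 5 population doublings. The deposited table holds counts, per the file headers tags per hairpin, in 1 column per population doubling. The submitters' processing notes name Bowtie 1.0.1. How it was run, which hairpin sequences it used and how 10 plates became 1 column is not given in the sources used here, and the columns were taken as values pooled by the authors.

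CPM were computed from each column's total. Fold changes were log2 ratios of CPM plus a pseudocount of 1. A hairpin was assessed if either column had at least 10 counts, and the pseudocount understates the loss of rare hairpins. Ratios carry exact conditional Poisson 95% intervals, shares exact binomial ones, and a count of 0 was raised to 3 counts to give a bound. No test was run, since each time has 1 column. Calculations used Python 3.11.15, numpy 2.4.6, pandas 2.3.3 and scipy 1.17.1 and were checked on simulated data. The simulation drew both columns from the PD40 counts with known changes added, so it did not cover the wide losses seen at PD60. TMM factors came from edgeR 4.0.16 and size factors from DESeq2 1.42.0 in R 4.3.3. All 6 gene names matched 1 current RefSeq symbol each as older names: H2AZ1, H2AZ2, H2AX, H2AJ, MACROH2A1 and MACROH2A2.

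The members, partner lists and comparison sets were chosen with earlier results of these data known. All members are named. Partner genes were named where a hairpin was over 2-fold higher at PD60. ATRX, PARP1 and HELLS were named as the whole macroH2A list. SRCAP, EP400, VPS72 and ATM, and TRCN0000106825 and TRCN0000073282, were named after their values were seen.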

Additional observations from a re-analysis of the deposited data

How the results depend on the processing

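No paired analysis was possible because the 10 plates of a time share 1 column; a replicate block, and the tests over plates by edgeR and DESeq2, were therefore not run. Causes of the changes below were not tested. The 3 members over 2-fold higher at PD60 were 11 with TMM scaling (18.8% of all hairpins), 12 with DESeq2's size factors (19.3%), 0 at a 4-fold threshold and 1 without H2AFZ; they were 2 to 4 under the other settings. The 24 lower members were 16 of 28 with TMM (64.4% of all hairpins) and with DESeq2's size factors (64.8%). They were 19 to 24 of 23 to 29 assessed members under the other settings, where 88.9% to 95.3% of all hairpins were lower. The share of higher among higher and lower calls at PD60, 11.1%, was 40.7% with TMM, 42.9% with DESeq2's size factors and 17.4% without the 50 most abundant hairpins. The median of -5.01 was -1.99 with TMM, -2.02 with DESeq2's size factors and -2.99 with a pseudocount of 10. Leaving out H2AFX gave -6.06 and leaving out H2AFZ -6.01. The share of tags at PD60, 0.580%, was 1.67% when the 50 most abundant hairpins were left out of both sums, 0.609% over hairpins naming 1 gene and 0.218% without TRCN0000072585.

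With TMM and with DESeq2's size factors, 8 hairpins that were lower changed sign, TRCN0000106906 staying within 2-fold under TMM, the first value being TMM's: TRCN0000106691 3.57 and 3.63, TRCN0000072586 3.47 and 3.53, TRCN0000106694 4.05 and 4.11, TRCN0000106906 0.93 and 1.06, TRCN0000106749 3.42 and 3.50, TRCN0000073279 3.09 and 3.15, TRCN0000073281 2.81 and 2.87, and TRCN0000073280 4.83 and 4.90. Without the 50 most abundant hairpins TRCN0000073280 was at 0.71. TRCN0000073278, within 2-fold at -0.45 with column totals, was at 6.36 with TMM and 6.43 with DESeq2's size factors. It was at 2.23 without the 50 most abundant hairpins. With PD55 as end point TRCN0000072584 was at -0.94. Gene means turned positive for H2AFX (4.27 with TMM, 4.34 with DESeq2's size factors and 0.13 without the 50 most abundant hairpins) and for H2AFZ (3.25 and 3.26). Means per gene under other scalings and without the top hairpin, catalogue ranges and shares without the top member were added after seeing the data. Depth limits the hairpins at 0 to 4 tags, for which losses beyond the floor of 3 tags were not detectable.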
